A study of Mus musculus with 6 samples.

Results

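Semaphorins are secreted or membrane-bound guidance cues, plexins are their receptors, and neuropilins are co-receptors that most secreted (class 3) semaphorins need to reach a plexin. All 31 symbols of these families in the counts table were taken, by name alone: 20 semaphorin genes, 9 plexin genes and both neuropilin genes, of 31276 symbols in all. RNA came from the brains of C57BL/6 mice at postnatal day 14: 3 samples were wild type (WT) and 3 carried the label PRMT5 olig2cre KO (KO). In KO, the gene of the arginine methyltransferase PRMT5 was targeted with Cre recombinase driven by Olig2, a transcription factor that marks oligodendrocytes and their precursors. The labels do not say which exons were targeted, whether WT animals carried Cre, or whether each sample is a different animal. The p-values thus reflect only the spread among these samples, part of which may be technical. The comparison asks how RNA of these guidance genes differs in brain tissue when Prmt5 is targeted in cells with an Olig2 history.

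Signals between semaphorins and plexins remodel the actin cytoskeleton: the plexin's cytoplasmic part acts on small GTPases, and CRMP and MICAL proteins carry the signal to microtubules and actin. In the brain these pathways steer axons, position migrating oligodendrocyte precursors and shape synapses. Sema4d, Sema5a, Sema6a and Plxnb3 are known to be expressed by cells of the oligodendrocyte lineage, and Plxnb3 is the plexin best known from that lineage. Plxnb3 is a receptor of Sema5a, and Plxnb1 is the main receptor of Sema4d.

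Of the 31 genes, 4 fell: Plxnb3 was 6.57-fold lower in KO, Sema4d 2.67-fold, Sema3d 2.29-fold and Sema6a 1.70-fold. All 31 members passed the filter on low counts. The quasi-likelihood test of edgeR, with Benjamini-Hochberg (BH) adjustment over all 16592 genes tested, called 4 members lower and 0 higher. It called 1.20% of all genes, 0.958% lower and 0.241% higher. Of the members 8 had an unadjusted p under 0.05, as had 9.67% of all genes. With the replicate number as a block, Sema5a was lower too, which made 5 members, where 3.41% of all genes were called and 2.38% were lower. DESeq2 called the same 4 as edgeR, where it called 1.93% of genes and 1.48% lower. With a term for sex 2 members were called, both lower, where 0.777% of genes were called and 0.687% lower. In the 3 libraries without transcripts of cerebellar granule cells, of which 1 is KO, 6 members were lower and 2 higher, where 7.37% of genes were called and 4.11% lower. The median log2 fold change (KO over WT) of the 31 members was -0.04, against 0.01 for all genes tested, with 18 members below 0 and 13 above. The ranges of the groups were separate for 9 members, 6 lower and 3 higher in KO, as they were for 16.0% of all genes tested (7.99% lower and 8.02% higher). The plot of fold changes for all members shows the 4 filled points lowest, with Sema6a (-0.76) near Sema5a (-0.52), which was not called. Of the 27 members not called, 24 lay within 0.31 of 0.

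**Figure D1:**
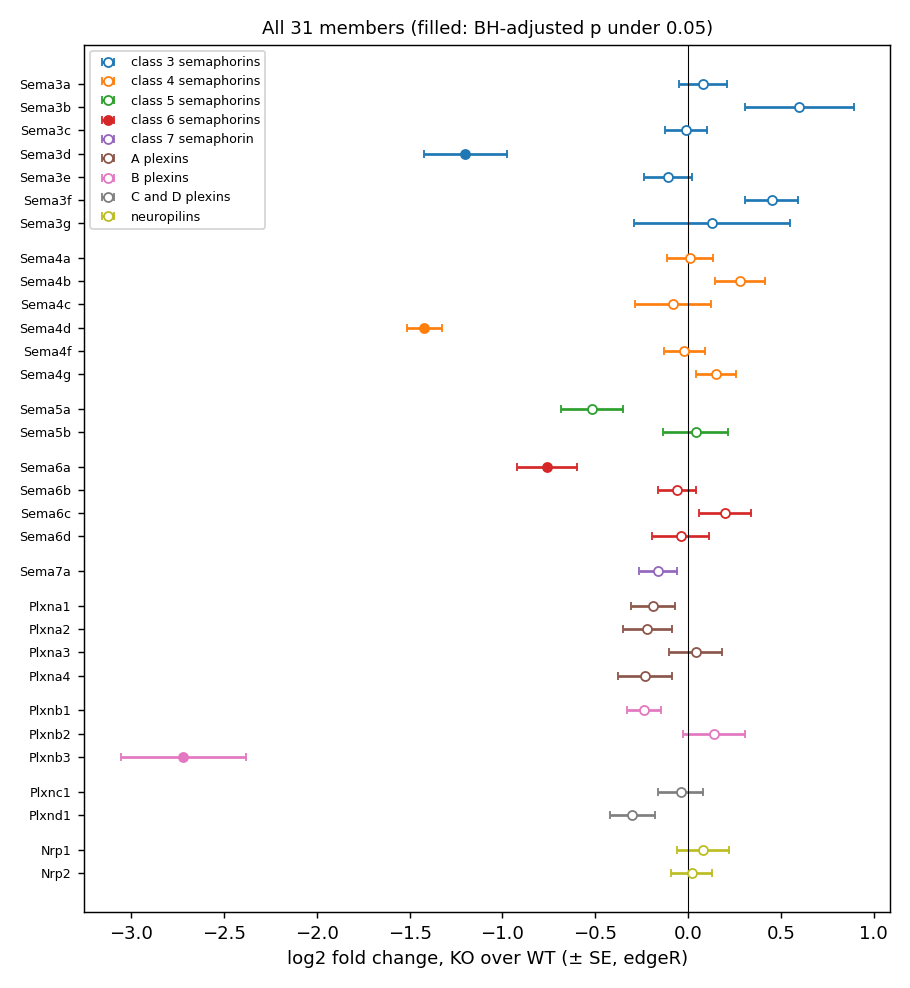
Log2 fold change of KO over WT (x axis, with its standard error) for each of the 31 genes (y axis), coloured by class; filled points had a BH-adjusted p under 0.05 in edgeR. Plxnb3 (-2.72), Sema4d (-1.42), Sema3d (-1.20) and Sema6a (-0.76) are filled, and every other gene lies between -0.52 and 0.60.

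Facts of the libraries that touch these results were as follows. Total counts ran from 15089140 to 16872925. Prmt5 stood at 91.0 ± 0.751 in WT and 72.7 ± 7.66 in KO in CPM, the count scaled by library total (SD, n = 3). It did not pass the test without the replicate block (adjusted p = 0.232 in edgeR) and passed with it (adjusted p = 0.0379 in edgeR). All 10 markers of myelinating oligodendrocytes and all 5 lineage transcription factors examined fell (list medians -2.60 and -1.13 on the log2 scale), with 5 of 6 markers of newly formed oligodendrocytes and 1 of 5 markers of precursors, Pdgfra. With the replicate block 3 of the 5 precursor markers were lower, and without it all 5 were below 0 and 4 had an unadjusted p under 0.05 in edgeR. The summed level of the myelinating list ran from 7564 to 10274 CPM in WT and from 905 to 1935 CPM in KO, and that of the precursor list from 530 to 613 and from 394 to 516 CPM. Of 6 meningeal fibroblast markers 5 rose, and the list summed to 117 to 127 CPM in WT and 213 to 306 CPM in KO. Among the 6 astrocyte, 6 microglial, 6 endothelial, 6 mural and 7 neuronal markers 0 were called by edgeR, by the fit with the replicate block or by DESeq2, and 2, both mural, had an unadjusted p under 0.05. Gabra6, a receptor subunit of cerebellar granule cells, was found at 63.84 CPM in WT replicate 1, at 80.03 CPM in KO replicate 1 and at 22.11 CPM in KO replicate 3, and was not counted in the other libraries, so the libraries differed in the cerebellar transcripts they held. Xist, expressed from the inactive X chromosome of females, was at 509.11 CPM in WT replicate 2, 634 CPM in KO replicate 1 and 603.35 CPM in KO replicate 2 and did not pass 0.25 CPM elsewhere. It was thus present in 1 of 3 WT and 2 of 3 KO libraries. The samples within each group therefore did not all come from the same animal. Col3a1, a collagen gene of fibroblasts, went from 23.5 ± 4.46 to 82.0 ± 18.0 CPM (SD, n = 3). Of 7 cerebellar granule cell and 5 choroid plexus markers 0 were called by edgeR or DESeq2, 2 had an unadjusted p under 0.05, and the block called 3 higher (Zic1, Zic2 and Ttr, named after their values were seen).

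The promoters of genes that fell together are shown because the RNA of SOX10, a transcription factor of the lineage, fell too: Sox10 went from 105.0 ± 4.39 to 29.2 ± 2.53 CPM (SD, n = 3). RefSeq promoter windows (GRCm38.p6) were found for 26 of the 31 members, 37 windows in all; Plxna1, Plxna4, Sema3b, Sema3f and Sema6a had none. The 250 bases before each start site were searched on both strands for the SOX words ACAAAG and ACAATG, which do not overlap each other here, and the words are in capitals (as their reverse complement where they lie on the other strand). Bases run 5′ to 3′ on the gene's strand. On mm10 the genes lie at chrX:73757090-73772514 (Plxnb3), chr5:12383385-12588948 (Sema3d) and chr13:51685529-51793747 (Sema4d). These are GENCODE coordinates, and the RefSeq start sites of the windows differ from their ends.
Plxnb3, chrX:73756853-73757102, plus strand: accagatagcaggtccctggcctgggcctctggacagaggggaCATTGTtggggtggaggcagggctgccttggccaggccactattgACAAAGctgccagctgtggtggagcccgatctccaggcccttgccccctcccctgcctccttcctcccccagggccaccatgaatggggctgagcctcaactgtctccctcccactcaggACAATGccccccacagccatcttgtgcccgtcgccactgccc
Sema3d, chr5:12382916-12383165, plus strand: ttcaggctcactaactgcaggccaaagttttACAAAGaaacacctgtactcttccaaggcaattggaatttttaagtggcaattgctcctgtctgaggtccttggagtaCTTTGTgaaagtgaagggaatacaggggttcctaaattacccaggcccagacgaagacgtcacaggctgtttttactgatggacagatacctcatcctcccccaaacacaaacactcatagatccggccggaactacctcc
Sema4d (1 of 3 start sites), chr13:51748811-51749060, minus strand: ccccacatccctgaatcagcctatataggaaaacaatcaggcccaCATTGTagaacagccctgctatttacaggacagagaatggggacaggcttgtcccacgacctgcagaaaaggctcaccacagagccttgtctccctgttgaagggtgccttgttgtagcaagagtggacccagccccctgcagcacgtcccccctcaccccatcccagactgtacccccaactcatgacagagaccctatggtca

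Plxnb3 held 3 SOX words, which begin 207, 162 and 42 bases before the RefSeq start site. Sema3d held 2, which begin 219 and 141 bases before its own RefSeq start site. Sema4d held 1 word in the window shown, chosen because it held one, and none in its other windows. All its windows lie inside the gene coordinates given above, so the outermost GENCODE start was not searched. Which start sites were used in these samples is not known. Either word occurred in 25.2% of all 32851 promoter windows and in 21.6% of the members' windows. At least 2 words occurred in 4.12% of all windows and at least 3 in 0.493%. Genes that were not called held them as well (Plxnc1, Sema3a, Sema4f, and 1 window each of Sema4a and Sema6d), and the Sema5a window held none. A word is a match of letters, not a site shown to be bound. The E-box words CANNTG (N is any base) and CAGCTG were searched too, and occurred in 66.2% and 13.0% of all windows. CANNTG was found 2 times in the Plxnb3 window, 3 times in that of Sema3d and 0 times in the Sema4d window shown. A part of SOX10 in the falls of these genes was not tested.

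Among the secreted class 3 ligands, Sema3d fell and 0 of 7 rose. In replicate order, Sema3d was at 13.49, 12.44 and 14.86 CPM in WT and at 7.66, 6.17 and 3.94 CPM in KO. Every KO library was below every WT library, and KO replicate 3 was the lowest. The log2 fold change was -1.20 (SE 0.223, adjusted p = 0.0274 in edgeR). Leaving out any single WT library (adjusted p in edgeR of 0.0743, 0.0816 and 0.139 for replicates 1 to 3) or KO replicate 2 (0.0957) ended the call, as did a term for sex (0.0504), with values from -1.32 to -1.13. In bulk tissue, fewer cells of a type and less RNA per cell cannot be told apart. Oligodendrocyte markers fell and fibroblast markers rose in the same libraries, and their part in the falls of Sema3d, Sema4d, Sema6a, Plxnb3 and Fyn was not tested.

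Sema3f and Sema3b, the other class 3 genes with separate ranges, lay higher in KO without passing the test. Sema3f, which signals through Nrp2, was at 11.49, 10.61 and 10.71 CPM in WT and 14.17, 16.95 and 13.66 CPM in KO, a log2 fold change of 0.45 (SE 0.144, adjusted p = 0.288 in edgeR). Sema3b, a related repellent, was at 2.37, 1.35 and 2.41 CPM against 3.28, 2.77 and 3.30 CPM, a log2 fold change of 0.60 (SE 0.293, adjusted p = 0.543 in edgeR). At 20 to 54 counts per library, Sema3b is measured with large counting error. Neither Sema3f nor Sema3b was called by DESeq2 (BH-adjusted p = 0.336 and 0.732).

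The remaining class 3 genes had log2 fold changes from -0.11 to 0.13 and overlapping ranges. Sema3a, the classic growth cone repellent that acts through Nrp1, went from 27.0 ± 1.41 to 28.6 ± 3.75 CPM (SD, n = 3). Sema3c went from 29.3 ± 1.39 to 29.1 ± 2.06 CPM, and Sema3e, which binds Plxnd1 without a neuropilin, from 37.6 ± 3.82 to 34.8 ± 5.04 CPM. Sema3g, known from blood vessels, was the least abundant member per exonic length, at 1.71 ± 0.622 and 1.88 ± 0.966 CPM, with 18 to 47 counts per library. Summed over the class, the level per kb of exon was 14.6 ± 0.274 in WT and 14.5 ± 1.17 CPM per kb in KO, while the share of Sema3d in it went from 10.8% ± 0.928 to 4.72% ± 1.38.

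Sema4d, a transmembrane ligand of Plxnb1, had the smallest standard error of the 4 genes that fell. It was at 84.45, 81.71 and 82.61 CPM in WT and at 34.30, 29.49 and 29.22 CPM in KO. The libraries of each group lay close together, and the groups were far apart. The log2 fold change was -1.42 (SE 0.0961, adjusted p = 3.9e-05 in edgeR), and it stayed called under all 17 alternatives, between -1.50 and -1.37. In libraries with cerebellar transcripts alone it was -1.42 and in those without -1.48.

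The other class 4 genes did not pass the test, with log2 fold changes from -0.08 to 0.28. Sema4b was the only one of them with separate ranges, at 16.74, 17.77 and 14.80 CPM in WT and 19.82, 18.02 and 22.17 CPM in KO (log2 fold change 0.28, SE 0.136, adjusted p = 0.539 in edgeR). Sema4a went from 40.6 ± 4.31 to 40.9 ± 4.88 CPM and Sema4f from 35.5 ± 1.38 to 35.0 ± 3.32 CPM, with n = 3 and SD as the error. Sema4g, the class 4 gene with the highest KO level per kb, was at 66.90, 70.83 and 58.96 CPM in WT and 81.48, 69.56 and 67.78 CPM in KO, with overlapping ranges (log2 fold change 0.15, SE 0.106). Sema4c, a ligand of Plxnb2, varied most within WT relative to its mean (23.67, 13.72 and 16.24 CPM) and was highest in the libraries with the most Gabra6, WT replicate 1 and KO replicate 1 (20.25 CPM). Sema4d made up 27.4% ± 0.348 of the class's level per kb in WT, the largest share, and 11.9% ± 0.948 in KO, where Sema4g (24.9% ± 2.27) had the largest mean share. The plot of shares within 2 families shows this beside the same measure for B plexins.

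**Figure D2:**
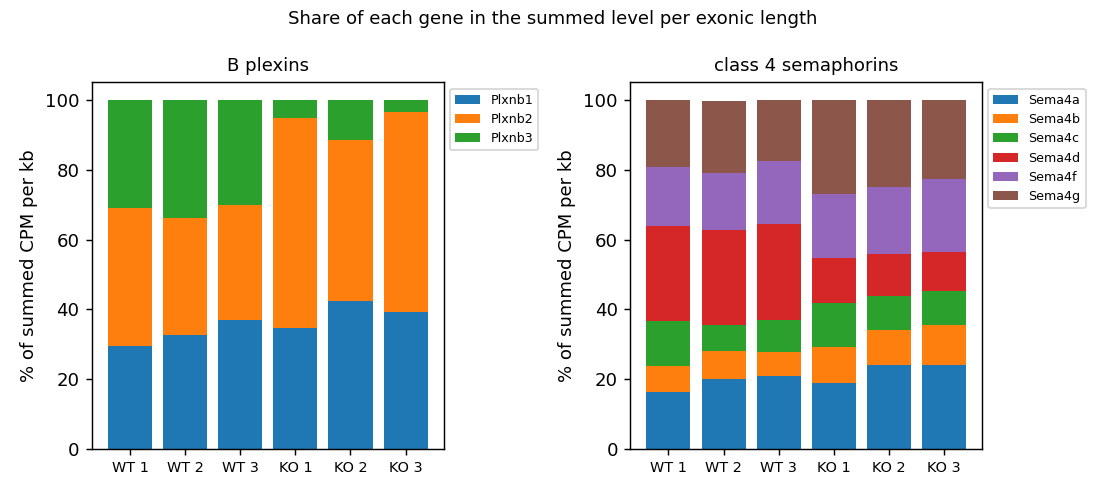
Share of each gene (y axis, percent) in the summed CPM per kb of exon of the B plexins and of the class 4 semaphorins, for each library (x axis). The Plxnb3 segment covers 29.9% to 33.9% of the WT bars and 3.42% to 11.6% of the KO bars, and the Sema4d segment 27.1% to 27.8% and 11.0% to 12.9%.

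Sema5a, a transmembrane cue with thrombospondin repeats that binds Plxnb3, did not pass the reported test and passed it with the replicate block. It was at 107.1, 93.13 and 76.23 CPM in WT and at 69.08, 75.54 and 47.96 CPM in KO. KO replicate 2 lay just under WT replicate 3, and the ranges did not overlap. The log2 fold change was -0.52 (SE 0.167, adjusted p = 0.288 in edgeR), and with the block it was -0.53 (SE 0.0911, adjusted p = 0.00111 in edgeR). The same-numbered pairs had log2 ratios of -0.63, -0.30 and -0.67, all negative as separate ranges require under any pairing. Among libraries with cerebellar transcripts it was -0.88 and among those without -0.16, each with a lone library in 1 group, and the difference (-0.71, SE 0.307) had an unadjusted p of 0.0471 and an adjusted p of 1.0 in edgeR. DESeq2 gave Sema5a a BH-adjusted p of 0.0741. Its relative Sema5b was at 24.0 ± 3.27 and 24.7 ± 5.85 CPM (log2 fold change 0.04, SE 0.176).

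In class 6, whose members bind A plexins without a neuropilin, Sema6a fell and the other 3 did not pass the test. Sema6a, which is needed for normal oligodendrocyte differentiation, was at 141.3, 112.0 and 106.9 CPM in WT and at 88.72, 66.09 and 57.24 CPM in KO. All KO libraries were below all WT libraries, and replicate 1 was the highest of each group. The log2 fold change was -0.76 (SE 0.159, adjusted p = 0.0479 in edgeR), close to the threshold. The fit with the replicate block gave -0.78 (SE 0.0838, adjusted p = 4.48e-06 in edgeR), and DESeq2 a BH-adjusted p of 0.00017. Leaving out any single WT library (adjusted p in edgeR of 0.149, 0.133 and 0.0966 for replicates 1 to 3), KO replicate 2 (0.217) or KO replicate 3 (0.172) ended the call, as did a term for sex (0.0961), with values from -0.85 to -0.63.

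Sema6b was among the most abundant members and kept overlapping ranges: 99.25, 112.5 and 118.8 CPM in WT and 99.24, 100.05 and 117.15 CPM in KO (log2 fold change -0.06, SE 0.102). Sema6d was at 104.4, 87.39 and 76.41 CPM in WT and 108.5, 80.77 and 72.23 CPM in KO (log2 fold change -0.04, SE 0.155), again highest in the replicate 1 libraries. Sema6c went from 26.6 ± 4.21 to 30.6 ± 2.97 CPM (SD, n = 3). Sema7a, the GPI-anchored semaphorin, which binds integrins and Plxnc1, was at 107.94 and 120.23 CPM in WT replicates 1 and 2 and lower in the third, with a mean of 109 ± 10.2 CPM (SD, n = 3), and at 104.96, 100.37 and 87.80 CPM in KO (log2 fold change -0.16, SE 0.102, adjusted p = 0.639 in edgeR).

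**Figure D3:**
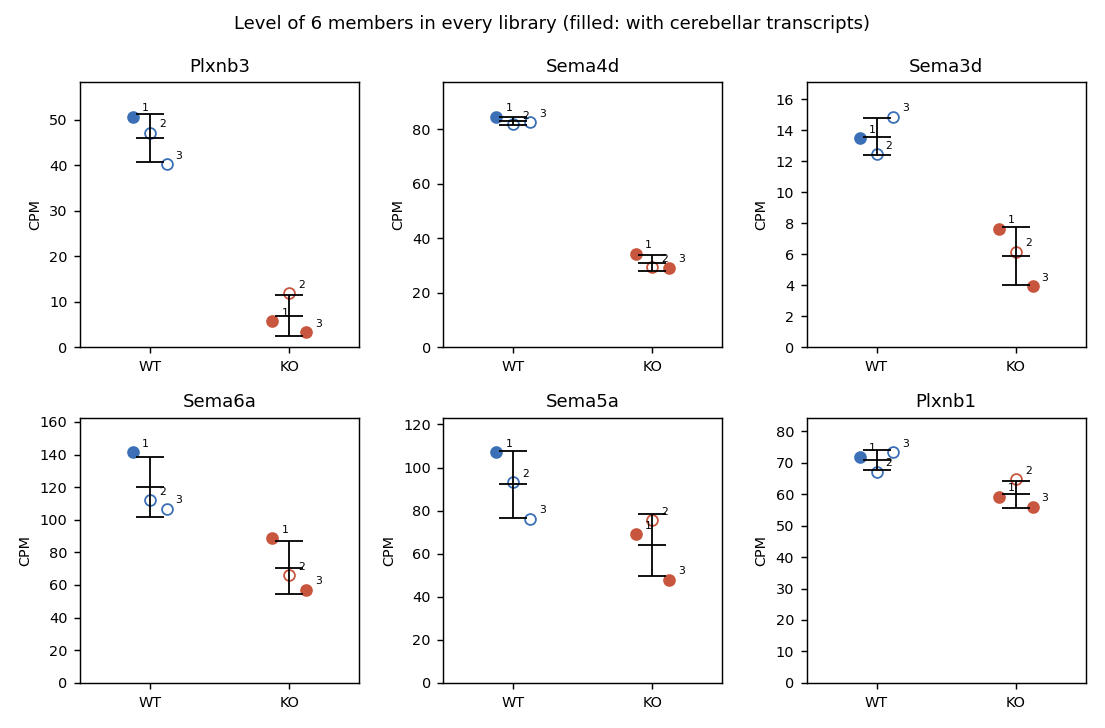
Level in CPM (y axis, from 0) of 6 members in each library, by group (x axis), with the replicate number beside each point; bars are the mean ± SD of 3 libraries, and filled points are libraries with Gabra6 above 5 CPM. Plxnb3 sits at 40.25 CPM or more in WT and at 11.97 CPM or less in KO, and Plxnb1 lies between 67.18 and 73.34 CPM in WT and between 56.10 and 64.71 CPM in KO.

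Of the receptors, Plxnb3 had the largest difference of all members. It was at 50.66, 47.17 and 40.25 CPM in WT and at 5.72, 11.97 and 3.30 CPM in KO (52 to 811 counts per library). The groups were widely separated, and KO replicate 2 kept the highest KO level. Mbp, the gene of myelin basic protein, was also highest in KO replicate 2 among the KO libraries, at 632.4, 964.2 and 469.5 CPM in KO replicates 1 to 3. The log2 fold change of Plxnb3 was -2.72 (SE 0.337, adjusted p = 0.00195 in edgeR), beside -2.74 (SE 0.241) for Mbp and -1.85 (SE 0.0972) for Sox10. It was called under all 17 alternatives, at values from -3.49 to -1.87.

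The extremes of that range were the fits within libraries alike in cerebellar transcripts: -3.49 for KO replicates 1 and 3 against WT replicate 1, and -1.87 for KO replicate 2 against WT replicates 2 and 3. A test of the difference between these effects (-1.62, SE 0.382) gave an unadjusted p of 0.00223 and an edgeR BH-adjusted p of 1.0. That test called 0 genes of 16592 by edgeR, the only tool run for it, and 411 had an unadjusted p under 0.05. Each subset has 1 lone sample in a group, which is assumed to vary like the others.

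The other B plexins did not pass the test. Plxnb1, the Sema4d receptor, had separate ranges, at 71.96, 67.18 and 73.34 CPM in WT and 59.23, 64.71 and 56.10 CPM in KO (log2 fold change -0.24, SE 0.0917, adjusted p = 0.417 in edgeR). Plxnb2, which is expressed in dividing progenitors, was at 77.58, 55.35 and 52.95 CPM in WT and 82.46, 56.89 and 65.75 CPM in KO (log2 fold change 0.14, SE 0.165). Per kb of exon, the B plexins summed to 22.5 ± 2.50 CPM per kb in WT and 16.2 ± 1.44 CPM per kb in KO (SD, n = 3). Plxnb3 made up 31.5% ± 2.08 of that sum in WT and 6.65% ± 4.32 in KO, while Plxnb2 went from 35.4% ± 3.67 to 54.6% ± 7.40.

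None of the 4 A plexins, receptors of class 6 semaphorins and of class 3 semaphorins held by neuropilins, passed the test in edgeR, with the replicate block or in DESeq2. Without the block 0 of them had an unadjusted p under 0.05 in edgeR, and with it Plxna1 (0.0354), Plxna2 (0.0213) and Plxna4 (0.0149) did, with adjusted p of 0.27, 0.215 and 0.18 in edgeR. Plxna1 was at 165.5, 163.2 and 141.7 CPM in WT and 161.9, 122.5 and 127.9 CPM in KO (log2 fold change -0.19, SE 0.118). Plxna2, a Sema6a receptor, was at 153.3, 162.5 and 150.6 CPM in WT and 156.2, 140.2 and 103.9 CPM in KO (log2 fold change -0.22, SE 0.133). In both, KO replicate 1 lay within the WT range. Plxna4 had a value of -0.23 (SE 0.146) and Plxna3 of 0.04 (SE 0.141). KO replicate 3 was the lowest library of Plxna2, Plxna3 and Plxna4, and it is also the library in which genes with longer exons lay lowest: its deviations from the mean of all libraries correlated with log2 exonic length at -0.278 across genes, which are not independent replicates. With offsets adjusted for exonic length the values of Plxna2 and Plxna4 were -0.13 and -0.15, and those of Plxna1 and Plxna3 -0.13 and 0.08. KO replicate 3 was also the lowest library of other members, among them Sema3d, Sema4d, Sema5a, Sema6a, Plxnb3, Plxnd1 and both neuropilins. Sema5a had the greatest exonic length of the members, at 18.686 kb. A part of exonic length in the values of the A plexins or of these other members was not tested.

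Plxnd1, the Sema3e receptor of vessels and neurons, was at 106.6, 136.8 and 137.8 CPM in WT and 116.6, 96.46 and 95.99 CPM in KO. WT replicate 1 lay below KO replicate 1, so the ranges overlapped (log2 fold change -0.30, SE 0.121, adjusted p = 0.437 in edgeR). Among libraries without cerebellar transcripts alone the value was -0.51, and among those with them -0.01, each with a lone library in 1 group. The difference between these values (0.51, SE 0.221) had an unadjusted p of 0.0478 and an adjusted p of 1.0 in edgeR. Plxnc1, the Sema7a receptor, was at 52.1 ± 4.16 and 50.5 ± 7.70 CPM (SD, n = 3; log2 fold change -0.04, SE 0.121).

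The neuropilins had overlapping ranges. Nrp1, which is also a VEGF co-receptor on endothelium, was at 35.54, 38.52 and 37.42 CPM in WT and at 39.10, 47.32 and 31.76 CPM in KO (log2 fold change 0.08, SE 0.139). Nrp2 was at 37.85, 37.58 and 38.21 CPM in WT and at 41.96, 40.01 and 33.35 CPM in KO (log2 fold change 0.02, SE 0.111). In each gene the 3 WT libraries lay close together and the KO libraries spread to both sides of them.

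Across the families, levels were compared per kb of exon, using GENCODE M21 exon lengths. In WT, Sema7a was the highest at 33.2 ± 3.09 CPM per kb, then Sema6b at 27.8 ± 2.51, Plxnd1 at 17.4 ± 2.43, Plxna1 at 17.3 ± 1.45, Sema6a at 13.7 ± 2.12 and Sema4d at 10.8 ± 0.182 (SD, n = 3). Sema7a and Sema6b differed by less than the sum of their SDs, and Plxnd1 and Plxna1 by less than their spread. The lowest levels were those of Sema3d (1.58 ± 0.141), Sema3b (0.428 ± 0.126) and Sema3g (0.376 ± 0.137), the last pair again within their spread. In KO, Sema4d moved from rank 6 to rank 18 of 31 (4.04 CPM per kb), Plxnb3 from rank 13 (7.09 CPM per kb) to rank 28 (1.08 CPM per kb) and Sema6a from rank 5 to rank 8 (8.05 CPM per kb), while Sema3d stayed at rank 29.

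**Figure D4:**
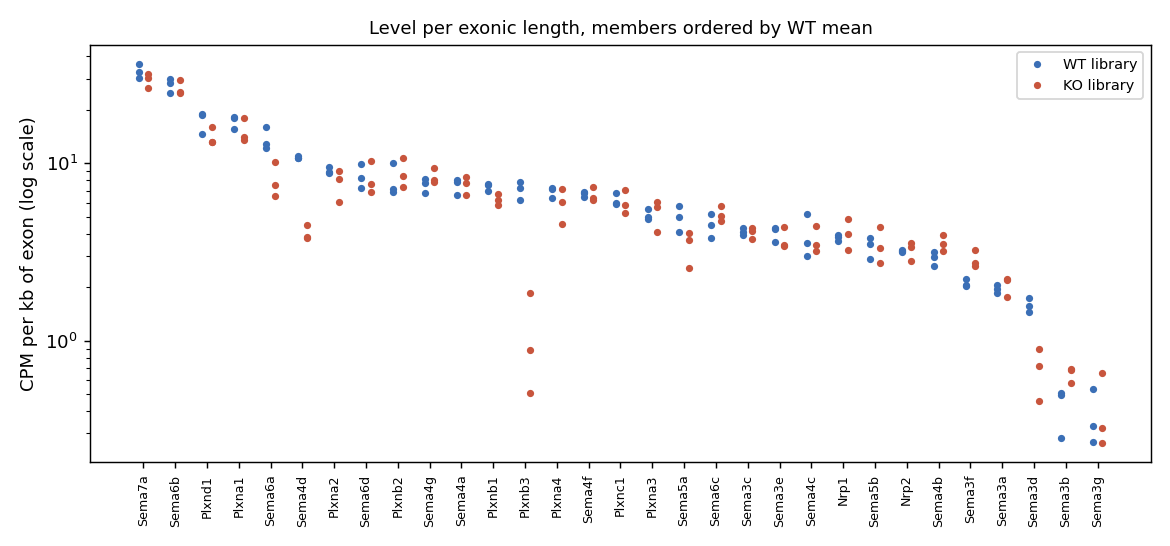
Level per exonic length (y axis, CPM per kb of exon, log scale) of the 31 genes (x axis, ordered by WT mean) in each WT and KO library. Most genes show mixed WT and KO points. The KO points of Plxnb3, Sema4d, Sema3d, Sema6a, Sema5a and Plxnb1 lie below the WT points, and those of Sema3b, Sema3f and Sema4b above them.

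No member was called between libraries with and without cerebellar transcripts when genotype was in the fit (0 of 31 by edgeR and 0 by DESeq2, where edgeR called 0.729% of all genes tested). The members' differences ranged from -0.45 to 0.48 on the log2 scale. Plxnb2 (0.45, adjusted p = 0.129 in edgeR) and Sema4c (0.48, adjusted p = 0.324 in edgeR) were the 2 members with an unadjusted p under 0.05, where 8.53% of all genes had one, both higher in libraries with these transcripts. KO replicate 3 had the least Gabra6 of the libraries that held it. Without this library, 4 members were called higher: Plxnb2, Sema4c, Sema6a and Sema6d. That fit set both replicate 1 libraries against the rest, so cerebellar transcripts and replicate number could not be told apart in it. The share of all genes called in that fit is not given here.

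Of 46 tested signalling partners in 5 lists (CRMP and MICAL effectors, GTPases and their regulators, kinases and actin regulators, other receptors and co-receptors, and VEGF ligands and receptors), 1 fell and 0 rose, against 1.20% of all genes called, and the median log2 fold change was -0.03. The one that fell was Fyn, a Src-family kinase that acts downstream of Sema3a and in oligodendrocyte differentiation. Fyn was at 235.9, 243.7 and 239.3 CPM in WT and at 159.1, 161.8 and 152.9 CPM in KO, with a wide gap between the groups (log2 fold change -0.60, SE 0.0834, adjusted p = 0.00433 in edgeR). In libraries with cerebellar transcripts alone, where WT has 1 library, the log2 fold change of Fyn was also -0.60 and did not pass (adjusted p = 0.635 in edgeR). Rap1a, a small GTPase whose activity plexins restrain, was at 59.84, 51.77 and 54.93 CPM in WT and 33.51, 43.60 and 37.74 CPM in KO. Its log2 fold change was -0.54 (SE 0.116, adjusted p = 0.0598 in edgeR), and it was called with the replicate block (adjusted p = 0.00495 in edgeR) and by DESeq2 (adjusted p = 0.00583).

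The 8 CRMP and MICAL genes had log2 fold changes from -0.26 to 0.15, with 0 called by edgeR, by the block fit or by DESeq2 and 1 at an unadjusted p under 0.05. In the other guidance families (Slit and Robo, netrins and their receptors, ephrins and Eph receptors), 0 of 42 tested genes were called by edgeR or by DESeq2 and 3 had an unadjusted p under 0.05, where 1.20% of all genes were called by edgeR and 9.67% had such a p. Their median log2 fold change was -0.10, against 0.01 for all genes, with 33 of 42 below 0, against 7913 of 16592. The ranges of the groups were separate for 3 of the 42, as they were for 16.0% of all genes tested. A part of exonic length in these values was not tested. The replicate block called 2 of them lower, the netrin receptor gene Unc5b (adjusted p = 0.0176 in edgeR) and the ephrin receptor gene Ephb1 (0.00504), where it called 3.41% of all genes and 2.38% lower.

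The fall of Plxnb3 and Sema4d held across the settings, and the calls of Sema3d, Sema6a and Sema5a depended on them, as the plot of fold changes by setting shows. Each of the 5 kept a negative value under every one of the 17 alternatives. Their ranges were separate, which all but fixed this sign when single libraries were left out and in the subsets by cerebellar transcripts.

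**Figure D5:**
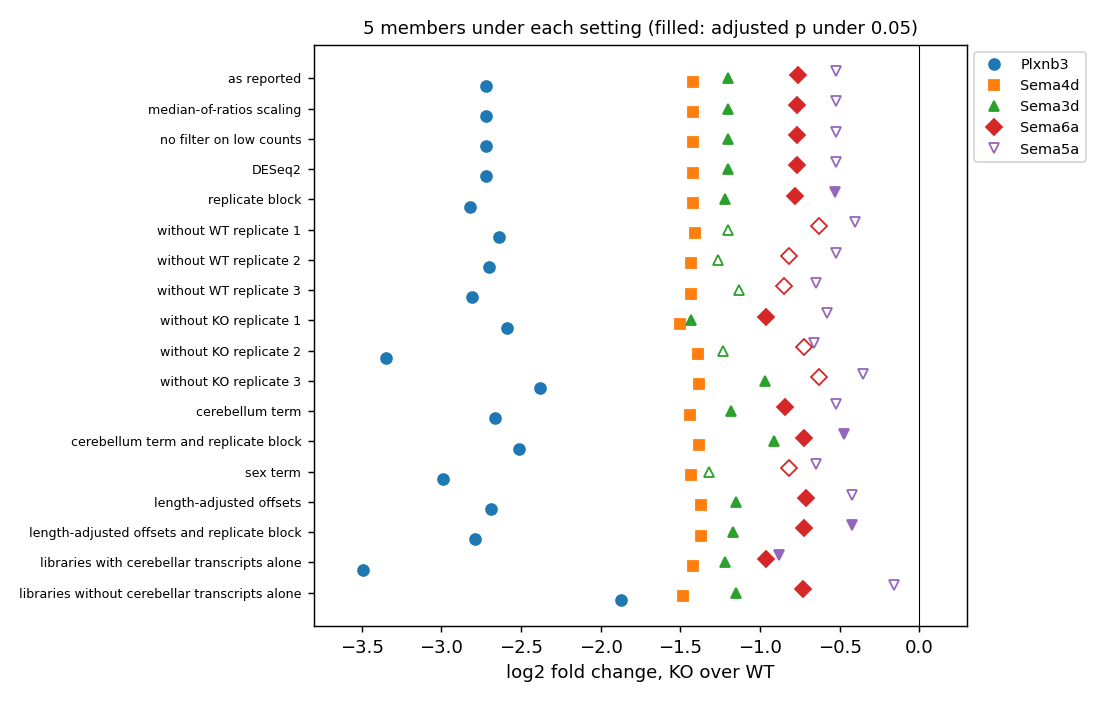
Log2 fold change of KO over WT (x axis) of 5 members under the reported fit and each of 17 alternatives (y axis); filled symbols had an adjusted p under 0.05. Plxnb3 and Sema4d are filled in every line, Sema3d and Sema6a lose their fill when single libraries are left out or sex is a term, and Sema5a is filled in 4 lines.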

How the data were processed

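The authors deposited whole-number counts per gene symbol. The tools named, per the submitters' processing notes, are featureCounts 1.5.0, STAR 2.3.0e, Trimmomatic 0.32, FastQC 0.11.2 and DESeq2, and the build is mm10. Libraries were TruSeq mRNA, 150 bp paired-end, per the labels' protocols. The strand setting and multi-mapping reads are not given in the sources used here, and exons of Plxna1, Plxna4, Plxnb1 and Sema4c overlap a gene on the opposite strand. The deposited normalized table was not used here.

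Low counts were removed with filterByExpr (16592 genes left) in R 4.3.3, and the rest were scaled with TMM and tested with edgeR 4.0.16 (glmQLFit, glmQLFTest; 4 residual degrees of freedom; BH-adjusted p under 0.05 called). CPM used TMM-scaled totals. DESeq2 1.42.0 was an alternative. The script was tested on simulated counts. SE is the log2 fold change divided by the square root of F. Exonic lengths are unions of GENCODE M21 exons on mm10, found for 23483 symbols. Chi-square per degree of freedom between libraries of a group was 6.75 to 27.41, so none was treated as a duplicate.

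Same-numbered samples deviated together from their group means (r of 0.351, 0.334 and 0.177 across genes, all above 0.1). Samples of unlike number gave r from -0.381 to 0.1. The numbers were therefore taken as pairs, from these same data and not the labels, and the calls with the block rest on that. Both replicate 1 libraries held cerebellar transcripts, and what the numbers stand for is not known. The block leaves 2 residual degrees of freedom. Alternatives were other scaling, no filter, DESeq2, the block, each library left out, and terms for cerebellar transcripts (Gabra6 above 5 CPM), sex (Xist above 5 CPM) and exonic length (loess span 0.5); the 2 subsets by cerebellar transcripts and the test of their difference were added after seeing the data. The members, lists and alternatives were chosen with earlier results of these data known. Library values are given for members called by edgeR, with the block or by DESeq2 and for the 8 others highest per exonic length; those of Sema3b, Sema3f, Sema4b, Sema4c, Plxnb1, Nrp1 and Nrp2 were added after their values were seen. Outside the members, Prmt5, Sox10, Mbp, Pdgfra, Col3a1, Gabra6 and called partner and guidance genes are named; Xist, Rap1a, Unc5b and Ephb1 were chosen after their values were seen.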

Additional observations from a re-analysis of the deposited data

How the results depend on the processing

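The count of genes called (199) was 314 by DESeq2, 566 with the replicate block, 535 with the block and a cerebellum term, 481 with the block and length-adjusted offsets, 129 with a sex term and 1254 in libraries without cerebellar transcripts alone, and 100 to 305 with single libraries left out. Members called (4) were 5 with the replicate block, 2 with the sex term, 8 in libraries without cerebellar transcripts alone and 2 to 4 with single libraries left out; the causes were not tested. The additional calls without cerebellar transcripts, which rest on 1 KO library, were Plxna1 (-0.32, edgeR BH-adjusted p = 0.0373), Plxnd1 (-0.51), Sema3f (0.67) and Sema5b (0.46). Plxnb3, Sema4d, Sema3d and Sema6a were called there too. The block changed no other member's call than that of Sema5a.

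Partner and other guidance genes called together (1, Fyn) were 2 without the filter, by DESeq2, with the cerebellum term or with length-adjusted offsets, 4 with the replicate block with or without the cerebellum term, 5 with length-adjusted offsets and the block, 0 in libraries with cerebellar transcripts alone, 11 in those without, and 1 to 2 with single libraries left out. Members called between libraries with and without cerebellar transcripts (0) were 1 without the filter (Plxnb2) and 0 to 4 with single libraries left out.

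Of the members' values under the alternatives, 453 kept direction and side of the threshold, 11 lost the call, 8 gained one and 55 changed sign. None of the sign changes was for Plxnb3, Sema4d, Sema3d or Sema6a, whose separate ranges left little room for one. With the sex term the sign changed for Nrp1 (-0.02), Nrp2 (-0.03), Plxna3 (-0.09), Sema3a (-0.00221), Sema4c (0.01), Sema4f (0.03) and Sema5b (-0.07). In libraries with cerebellar transcripts alone it changed for Nrp1 (-0.01), Nrp2 (-0.01), Plxna3 (-0.04), Plxnb2 (-0.07), Plxnc1 (0.06), Sema4f (0.00171), Sema5b (-0.32) and Sema6b (0.12), and in those without for Sema3c (0.07), Sema3e (0.15), Sema3g (-0.61) and Sema4a (-0.04). The cerebellum term changed Sema3c (0.01), and with the block Plxnc1 (0.11), Sema3c (0.08), Sema3g (-0.03) and Sema4a (-0.01). Length-adjusted offsets changed Plxnc1 (0.00436), Sema3c (0.03) and Sema6d (0.03), and with the block Plxnc1 (0.01), Sema3c (0.03) and Sema6d (0.03). With single libraries left out, values crossed 0 for Nrp1 (-0.07 to 0.22), Nrp2 (-0.05 to 0.11), Plxna3 (-0.07 to 0.19), Plxnb2 (-0.02 to 0.34), Plxnc1 (-0.17 to 0.05), Sema3c (-0.05 to 0.05), Sema3g (-0.37 to 0.46), Sema4a (-0.07 to 0.10), Sema4c (-0.24 to 0.18), Sema4f (-0.10 to 0.03), Sema5b (-0.16 to 0.18) and Sema6d (-0.23 to 0.09). Depth limits Sema3b and Sema3g most, at 18 to 54 counts per library.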
